A study of Arabidopsis thaliana with 9 samples.

Results

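Dehydrins and cold-regulated (COR) proteins are small, highly hydrophilic proteins that plant cells make when water leaves them, through drought, salt or ice. The 10 Arabidopsis genes followed here are the dehydrin genes RAB18 (AT5G66400), LTI30 (AT3G50970), COR47 (AT1G20440), ERD10 (AT1G20450) and ERD14 (AT1G76180), the chloroplast protein genes COR15A (AT2G42540) and COR15B (AT2G42530), the paired genes KIN1 (AT5G15960) and KIN2 (AT5G15970), and RD29A (AT5G52310, also called LTI78). They are picked out by gene identifier, a rule that uses no measured value, though the family was chosen with earlier results of these data known. All 10 were found among 33323 identifiers counted. All 10 also passed the filter on low counts, which left 20672 genes for testing.

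Dehydrins carry repeated lysine-rich segments and stay mostly unfolded in solution, and they bind membranes and other proteins when water is scarce. Their genes are known for 2 promoter elements. The C-repeat or dehydration-responsive element (CRT/DRE) is bound by the cold-induced CBF factors and by DREB2A, and the abscisic acid response element (ABRE) is bound by the ABF factors that the hormone's SnRK2 kinases switch on. In unstressed seedlings these genes are read too, at a level that also follows the time of day.

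The libraries came from 2-week-old Arabidopsis thaliana seedlings grown on MS medium, with no stress treatment named. WT was Col-0, atrzf1 is a mutant line of the RING-type ubiquitin ligase gene AtRZF1, and pca31 is a line that the series describes as a suppressor of atrzf1. The sources used here give neither the kind of mutation nor its promoter or position, and they do not say how many plants made up a library. Each genotype had 3 libraries, and the number 1, 2 or 3 in a title was shared by the 3 genotypes. What a number stands for is not stated, and neither is whether libraries came from separate cultures, so p-values measure only the spread between these libraries, which may be technical.

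Each library held 22478803 to 33073605 counts from the 3' ends of transcripts, and values are given as CPM, counts scaled by the normalized size of the library. The transcript of AtRZF1 itself measured 24.0 to 31 CPM in WT, 2.11 to 4.60 CPM in atrzf1 and 1.16 to 3.18 CPM in pca31, so the low level in both mutant lines goes with their labels. Libraries of 1 number were closer to each other (Spearman 0.965 to 0.982 across genes) than libraries of 1 genotype (0.855 to 0.963). Root markers summed to 1753 to 2598 CPM in the number 3 libraries and to 210 to 362 CPM in the 6 others, where 4 to 6 of the 12 markers were at 0. The 8 leaf photosynthesis markers summed to 18950 to 24530 CPM in number 3 and to 37230 to 69970 CPM elsewhere, and none was at 0. In RNA of mixed tissues, fewer cells of a type and less RNA per cell cannot be told apart. Whether each number held the same parts of the seedling was not tested. Of 11 tested root markers, edgeR called 10 higher in number 3 and 0 lower (adjusted p below 0.05), against 23.6% and 22.1% of all genes. The libraries numbered 3 therefore stand apart from the rest, and each result below is given with them and by number.

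The 250 bases before the annotated start of 4 of the genes are printed below. Within these windows COR15A holds both kinds of promoter element, RD29A only one and the KIN genes only the other. The windows were read from the RefSeq TAIR10.1 genome, in the direction of the gene. Capitals mark CCGAC, the core of the CRT/DRE, or ACGTG, the core of the ABRE, on either strand (as GTCGG or CACGT on the other). COR15A lies on the minus strand, with its window at chr2:17712331-17712580. RD29A, KIN1 and KIN2 lie on the plus strand, with windows at chr5:21240467-21240716, chr5:5209467-5209716 and chr5:5211469-5211718.
COR15A: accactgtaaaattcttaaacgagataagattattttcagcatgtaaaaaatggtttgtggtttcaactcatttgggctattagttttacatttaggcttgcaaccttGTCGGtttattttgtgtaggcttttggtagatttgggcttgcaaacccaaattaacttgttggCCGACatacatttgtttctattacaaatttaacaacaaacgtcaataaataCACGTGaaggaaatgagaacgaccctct
RD29A: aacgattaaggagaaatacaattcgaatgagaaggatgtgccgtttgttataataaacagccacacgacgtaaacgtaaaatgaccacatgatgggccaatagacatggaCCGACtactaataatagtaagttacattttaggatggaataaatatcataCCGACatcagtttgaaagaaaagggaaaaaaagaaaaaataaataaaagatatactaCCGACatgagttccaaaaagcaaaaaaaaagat
KIN1: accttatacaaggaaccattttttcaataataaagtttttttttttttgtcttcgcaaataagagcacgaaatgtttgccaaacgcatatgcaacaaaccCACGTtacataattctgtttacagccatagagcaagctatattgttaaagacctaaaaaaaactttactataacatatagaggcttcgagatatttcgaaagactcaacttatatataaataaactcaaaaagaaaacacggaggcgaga
KIN2: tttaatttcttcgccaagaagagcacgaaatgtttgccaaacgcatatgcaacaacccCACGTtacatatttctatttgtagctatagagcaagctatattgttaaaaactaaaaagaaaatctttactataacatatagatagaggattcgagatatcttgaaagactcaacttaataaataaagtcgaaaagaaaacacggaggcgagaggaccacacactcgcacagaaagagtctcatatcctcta

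No other annotated gene lies in these 4 windows. In RD29A, a gene long used as the model for the CRT/DRE, CCGAC began at -140, -90 and -33, counted in bases from the gene start. COR15A held it at -142 and -79, with 1 palindrome of ACGTG and its reverse complement at -28. LTI30 held CCGAC 3 times, in a window of which 36 bases lie in AT3G50960, and no other member held it. CCGAC was thus present at least once in 3 of 10 members, against 12% of 27443 promoter windows of the same length, and at least 2 times in the same 3, against 1.41%. ACGTG was present in 5 of 10 members (RAB18, ERD14, COR15A, KIN1 and KIN2), against 22.9% of windows. RAB18 held it at 3 places, but its whole window lies inside the neighbouring gene PLP3b. For COR15B, which held neither core, 243 of the 250 bases lie inside COR15A. A match, or the lack of one, describes these letters in this window only. Bases further upstream or past the annotated gene start were not read. The genome was read in 1 build for all windows.

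**Figure D1:**
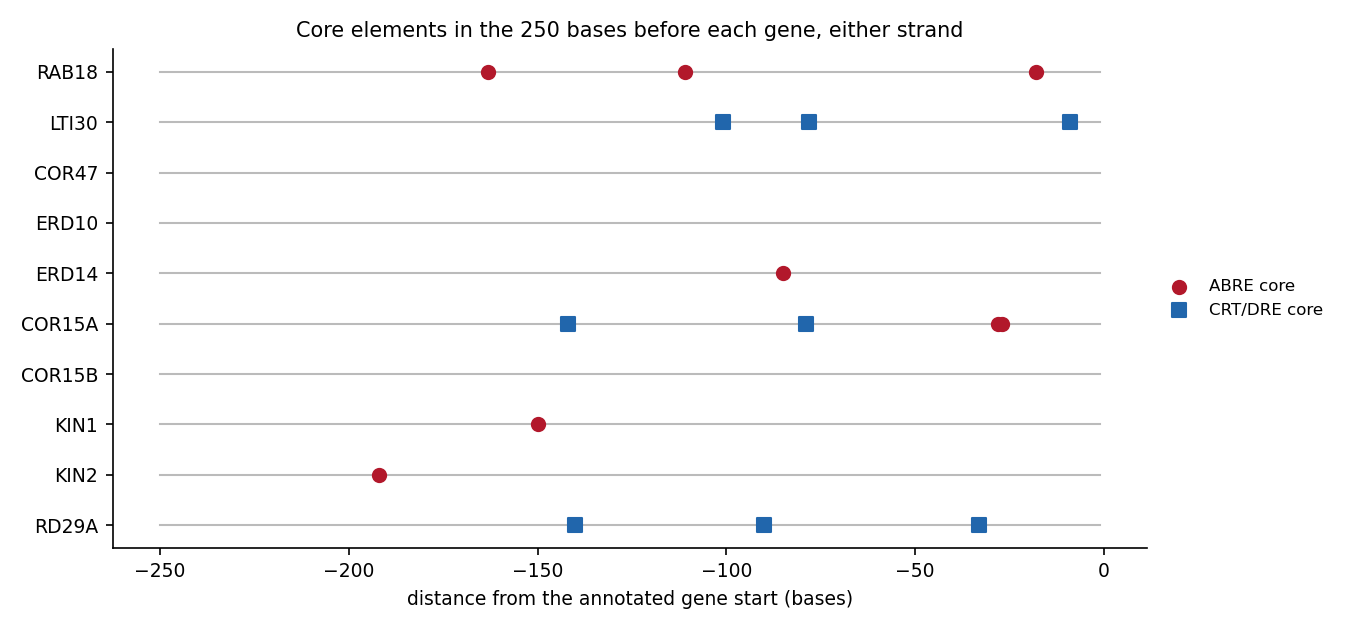
Each line is the 250 bases before 1 gene, with the distance from the gene start (at the right) in bases. Circles mark the ABRE core and squares the CRT/DRE core on either strand, which fall in the windows of 5 and 3 of the 10 genes. COR15A is the one gene with both inside its window, and bases outside the windows were not read.

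Neighbouring members sit close together. COR15A and COR15B are 7 bases apart on chromosome 2, KIN1 and KIN2 are 892 bases apart on chromosome 5, and COR47 and ERD10 are 1029 bases apart on chromosome 1, each pair on 1 strand with no gene between. The coding sequences of KIN1 and KIN2 are 95% identical over 201 bases, but the last 300 bases of their transcripts, where 3' end reads fall, are only 56.2% identical. COR15A and COR15B are 83.8% identical over the coding sequence and 53.4% over the last 300 bases. How the authors assigned reads to near copies is not given in the sources used here, so the split within a pair is less certain than its sum. COR15B also shares 468 bases with AT2G42520 on the other strand, which held 932 to 1283 counts, and RAB18 shares 11 bases with PLP3b, which held 321 to 1238 counts. Because the strand setting of the counting is unknown, reads of these overlapping genes cannot be told apart.

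The question of the series is whether AtRZF1 and the suppressor move target genes in opposite directions, which sets each line against WT and the 2 mutant lines against each other. Among these 10 genes no transcript differed between genotypes past the threshold (edgeR quasi-likelihood test, Benjamini-Hochberg adjusted p below 0.05 over 20672 genes). The count was 0 of 10 for atrzf1 against WT, for pca31 against atrzf1 and for pca31 against WT, in that order below, and it was 0 of 10 again when the library number was added as a block. At an unadjusted p below 0.05 the counts were 0, 0 and 0 without the block, and 0, 1 and 1 with it, the 1 being KIN2. Over all 20672 genes, 115, 44 and 191 were below that unadjusted p without the block. With the block 772, 914 and 1746 were. At the adjusted threshold the test called 0%, 0.00484% and 0.00484% of all genes without the block, and 0.0339%, 0.00484% and 0.0435% with it. Few calls were thus to be had in any group of genes. DESeq2 without the block called 0 of 10 as well, and 0.0197%, 0.00493% and 0.0246% of genes. No member had its libraries of 1 genotype all above or all below those of another, against 1.3% and 1.14% of genes (atrzf1 above and below WT), 1.79% and 1.27% (pca31 above and below atrzf1) and 2.89% and 2.06% (pca31 above and below WT). The median log2 fold change of the 10 members was -0.03, -0.07 and -0.03 without the block, against 0.00, 0.00 and 0.01 over all genes.

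**Figure D2:**
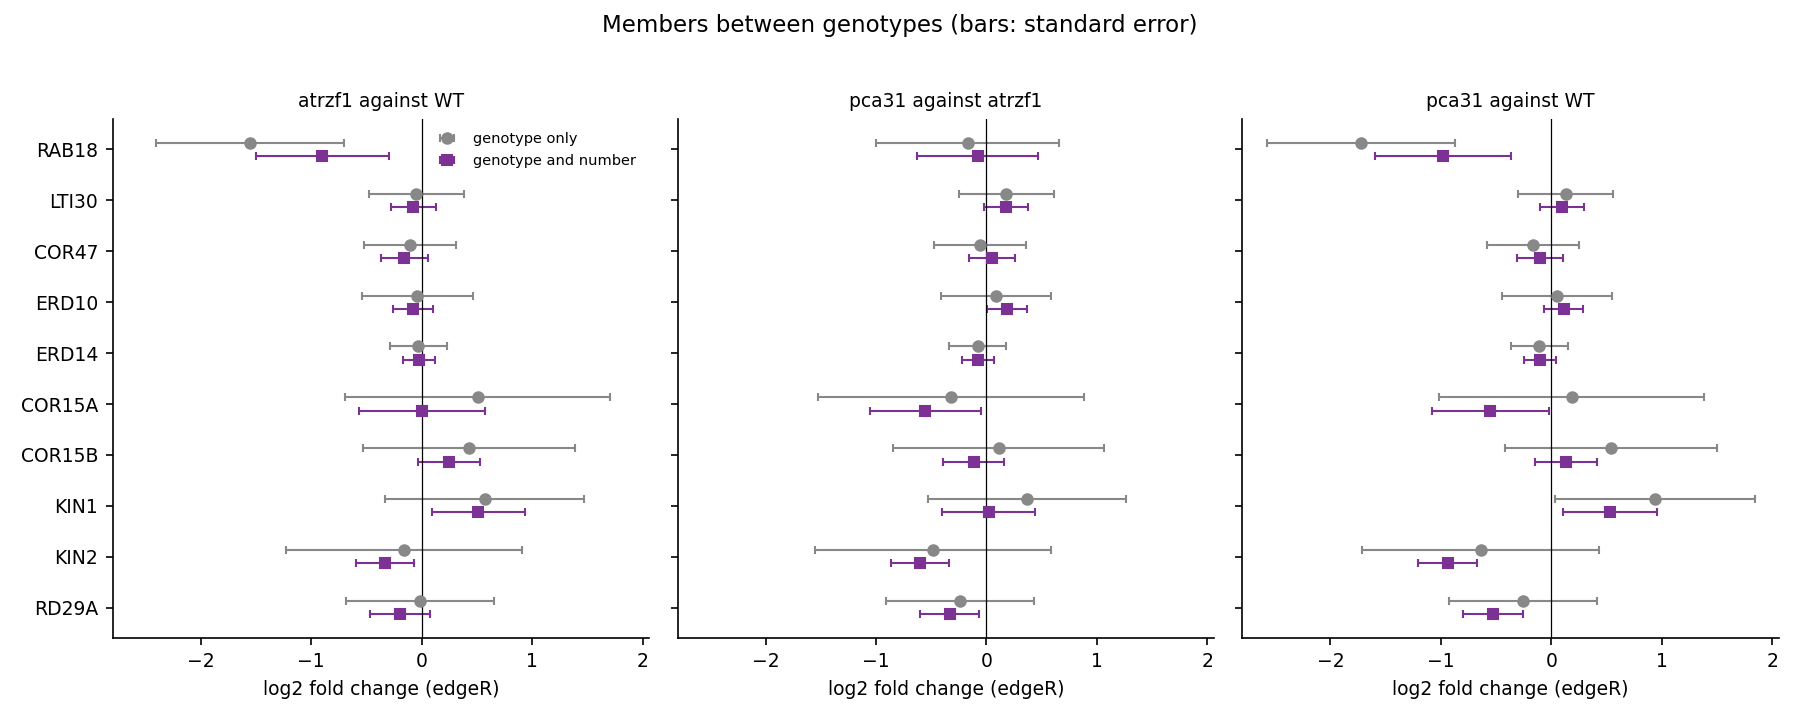
Log2 fold changes of the 10 members (edgeR, horizontal axis) for the 3 genotype comparisons, with bars for 1 standard error, fitted with genotype only (circles) or with genotype and library number (squares). No member was called in any panel. Under genotype alone bars are widest for COR15A and KIN2, and they shorten once the number is in the fit.

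Among the dehydrins, RAB18, the classical dehydrin of the abscisic acid response, was at 115, 52.6 and 812 CPM in WT libraries 1, 2 and 3. The atrzf1 libraries held 120, 82.3 and 132 CPM, and those of pca31 130, 78.6 and 88.0 CPM. Library 3 of WT was far above the 8 others, which fell within one another's range. The log2 fold change against WT was -1.55 ± 0.85 (SE, edgeR adjusted p = 1.00) in atrzf1 and -1.72 ± 0.85 (adjusted p = 1.00) in pca31, and neither was called. Without library 3 of WT both turned positive, at 0.41 and 0.22.

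LTI30, a cold-induced dehydrin that binds membranes, was at 19.1, 12.2 and 24.3 CPM in WT, 26.3, 10.6 and 17.0 CPM in atrzf1 and 23.3, 11.6 and 26.1 CPM in pca31. COR47, an acidic dehydrin, was at 424, 282 and 581 CPM in WT, 528, 193 and 473 CPM in atrzf1 and 390, 324 and 433 CPM in pca31. ERD10, its neighbour, 82.6% identical in coding sequence, was at 296, 110 and 230 CPM in WT, 332, 109 and 177 CPM in atrzf1 and 309, 161 and 187 CPM in pca31. In all 3 genes library 2 was the lowest of each genotype, and the genotypes overlapped. ERD14, an acidic dehydrin that binds calcium and membranes, was the steadiest member, at 789 to 1098 CPM in WT, 865 to 1081 CPM in atrzf1 and 791 to 1004 CPM in pca31. Its highest library held 1.39 times its lowest, against 2.48 to 73.2 times in the other 9 members.

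COR15A, which encodes a protein of the chloroplast stroma that guards membranes during freezing, was at 74.3, 142 and 30.0 CPM in WT. The atrzf1 libraries held 86.0, 246 and 18.5 CPM, and those of pca31 112, 165 and 3.36 CPM. The genotypes overlapped, and library 3 was the lowest in each. COR15B, its tandem copy, was at 116, 109 and 28.1 CPM in WT, 132, 182 and 26.2 CPM in atrzf1 and 169, 185 and 13.6 CPM in pca31. It showed the same low library 3 in all 3 genotypes.

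KIN2, a small hydrophilic protein gene induced by cold and abscisic acid, was at 1819, 3982 and 545 CPM in WT. The atrzf1 libraries held 2109, 3258 and 321 CPM, and those of pca31 1809, 2115 and 148 CPM. Within each number pca31 was the lowest, though by 1.01-fold against WT in number 1, 1.88-fold in number 2 and 3.69-fold in number 3. KIN2 was the 1 member lower under all 3 numbers in pca31 than in WT (14.3% of genes were) and the 1 member lower under all 3 in pca31 than in atrzf1 (11.4% of genes). The log2 fold change of pca31 against WT was -0.64 ± 1.07 without the block and -0.94 ± 0.27 with it (edgeR adjusted p = 0.397). DESeq2 with the block, an alternative added after the data were seen, did call it at -0.96 ± 0.24 with an adjusted p of 0.0207, where 0.561% of genes were called.

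KIN1, the nearly identical neighbour, was at 4.02, 7.68 and 2.40 CPM in WT, 7.88, 10.4 and 2.70 CPM in atrzf1 and 9.78, 16.4 and 0.831 CPM in pca31. It made up only 0.193% to 0.834% of the counts of the pair, so a small share of misassigned KIN2 reads could change it. KIN1 was the 1 member higher in atrzf1 than in WT under all 3 numbers, as were 12.1% of genes. Its log2 fold change there was 0.57 ± 0.90, with an edgeR adjusted p of 1.00. RD29A, a large hydrophilic protein gene, was at 81.9, 40.2 and 50.3 CPM in WT, 103, 33.0 and 34.8 CPM in atrzf1 and 94.3, 33.7 and 16.6 CPM in pca31. Library 1 was its highest in each genotype, and the genotypes overlapped.

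**Figure D3:**
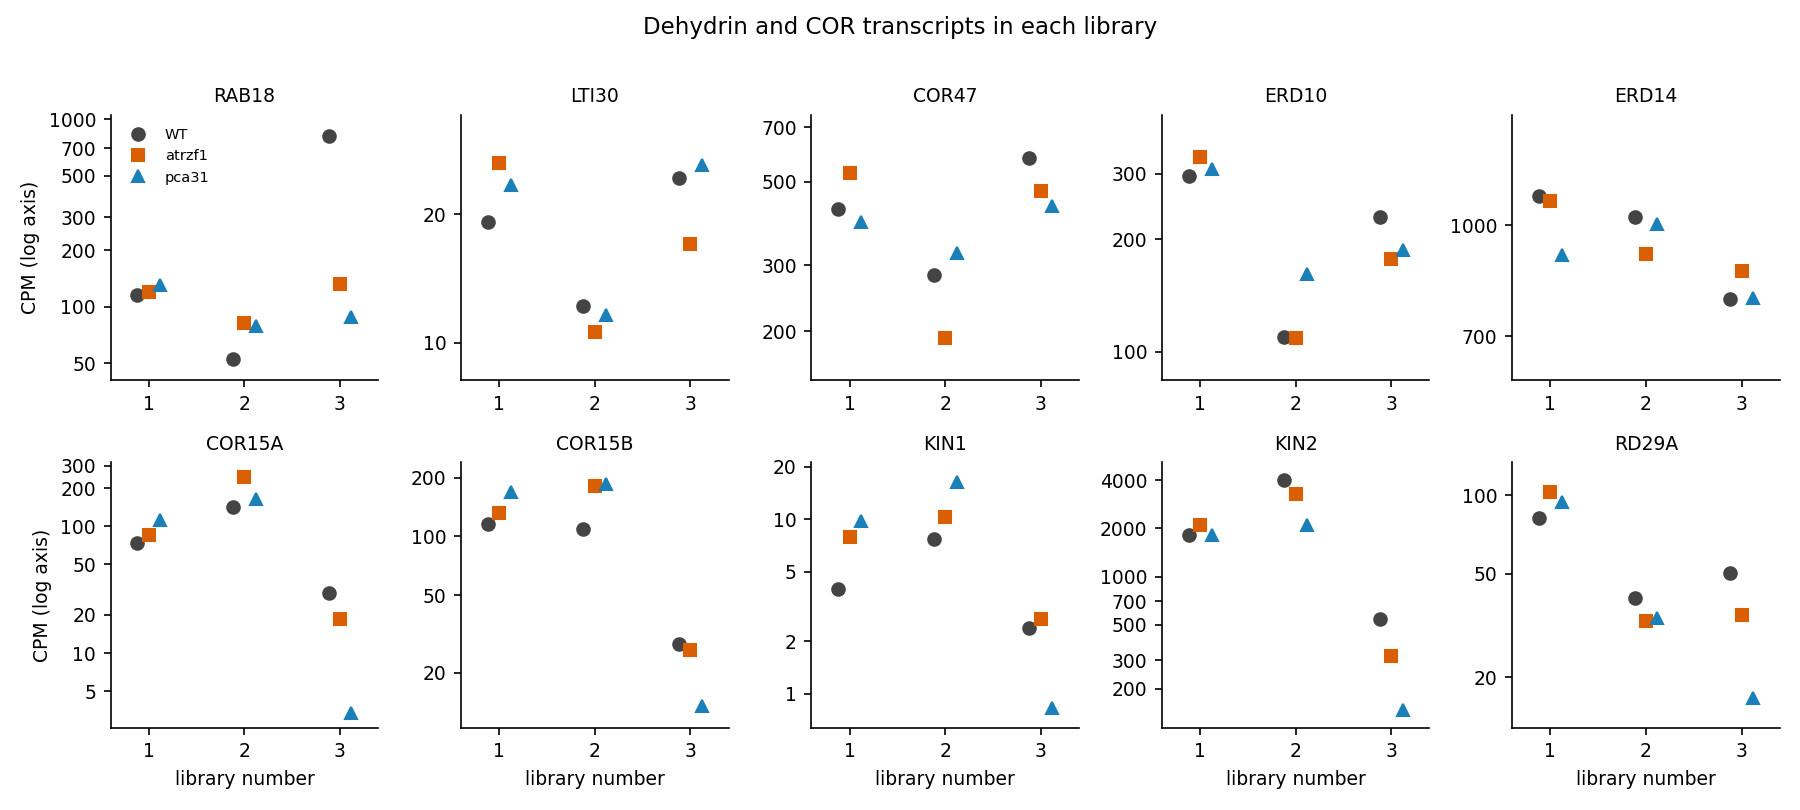
Level of each member in the 9 libraries, in CPM on log axes whose range differs by panel, by library number (horizontal axis) and genotype (circles WT, squares atrzf1, triangles pca31). Single points stand for single libraries. RAB18 stands out in WT library 3 at 812 CPM, while COR15A, COR15B, KIN1 and KIN2 are lowest in the 3 libraries numbered 3.

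Set side by side within a number, the mutants and WT differed in a way that changed with the number. In number 1 the median log2 ratio of the 10 members to WT was 0.21 in atrzf1 (9 of 10 members above WT) and 0.19 in pca31 (7 of 10 above). In number 2 it was -0.09 in atrzf1 (4 of 10 members above WT) and 0.21 in pca31 (6 of 10 above), both near an even split. In number 3 it was -0.44 in atrzf1 and -1.29 in pca31, with 8 of 10 members below WT in each line. Over all genes these medians lay between -0.01 and 0.02 in every pair, so genes at large split about evenly above and below WT. The 3 comparisons share libraries, and each pair within a number is 1 library against 1, so these ratios have no replicate check of their own.

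A test of whether the genotype difference in number 3 departed from that in numbers 1 and 2 was added after these values were seen (an edgeR interaction of genotype with number 3, number kept as a block, 2 residual degrees of freedom). For pca31 against WT it called 6 of 20672 genes, 0.029%, and 2 of them were members. RAB18 differed by -3.57 ± 0.38 on the log2 scale (adjusted p = 0.0397) and COR15A by -3.58 ± 0.46 (adjusted p = 0.0496). Because the contrast was picked for these members' values, the share of members called is a description of how they were chosen as much as of the genes. The 2 differences arose from different libraries. RAB18 was 9.22-fold lower in pca31 than in WT within number 3, where WT was high, and 1.13-fold and 1.49-fold higher in numbers 1 and 2. COR15A was 8.93-fold lower in pca31 within number 3, where pca31 fell to 101 counts, and 1.51-fold and 1.16-fold higher in numbers 1 and 2.

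COR15B, KIN1, KIN2 and RD29A departed in the same direction without passing the threshold, by -1.70 ± 0.37, -2.70 ± 0.56, -1.42 ± 0.43 and -1.57 ± 0.39 (adjusted p from 0.428 to 0.772). LTI30, COR47, ERD10 and ERD14 gave 0.00 ± 0.40, -0.48 ± 0.47, -0.62 ± 0.38 and 0.15 ± 0.36. For atrzf1 against WT and for pca31 against atrzf1 the interaction called 0 of 10 members and 0% of genes, with 2 and 4 members at an unadjusted p below 0.05 (3.1% and 3.45% of genes). DESeq2 called 1 member in each of these 2 (0.0677% and 0.0339% of genes) and 3 members in pca31 against WT (0.14%). RAB18 was at -2.97 ± 0.38 for atrzf1 against WT, with an edgeR adjusted p of 0.202. In every one of these tests the number 3 value of a genotype is 1 library, so a trait of the genotype and a trait of that library cannot be told apart.

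The larger contrast in these genes lay between library numbers. In number 3 against numbers 1 and 2, with genotype in the fit, 8 of 10 members were called, 3 higher and 5 lower, where 45.7% of all genes were called (23.6% higher and 22.1% lower). The 4 small COR genes fell. The log2 fold change was -2.99 ± 0.27 for KIN2 (SE, edgeR adjusted p = 4.87e-06), -3.08 ± 0.52 for COR15A (adjusted p = 0.000529), -2.70 ± 0.28 for COR15B (adjusted p = 1.58e-05) and -2.13 ± 0.41 for KIN1 (adjusted p = 0.00125). RD29A fell by 0.85 ± 0.24 (adjusted p = 0.0134). RD29A overlapped between numbers, while each of the 4 small COR genes, and ERD14, was lower in all 3 libraries numbered 3 than in any of the 6 others, as were 17.3% of genes. No member was higher in all 3 than in any other library, against 18.9% of genes.

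The fall of the 4 small COR genes was of unequal size by genotype. The mean of libraries 1 and 2 over library 3 was 3.61 for COR15A in WT, 8.96 in atrzf1 and 41.2 in pca31. It was 3.99, 5.99 and 13.1 for COR15B, 2.44, 3.39 and 15.7 for KIN1, and 5.32, 8.37 and 13.3 for KIN2. These genes share the same single number 3 library in each genotype and ran together across libraries, so their ratios are not separate observations. WT had the smallest ratio and pca31 the largest for each of the 4. The test of that difference is the interaction above, which of these 4 called only COR15A in pca31 against WT.

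Of the dehydrins, RAB18, LTI30 and COR47 were called higher in number 3, by 1.41 ± 0.52 (adjusted p = 0.0449), 0.46 ± 0.17 (adjusted p = 0.0438) and 0.52 ± 0.18 (adjusted p = 0.0320) in the same edgeR fit. The call of RAB18 rested on library 3 of WT, which was at 9.68 times the mean of libraries 1 and 2. That ratio was 1.3 in atrzf1 and 0.843 in pca31, and without library 3 of WT the log2 fold change was 0.12 with an adjusted p of 0.664. Without that library LTI30 and COR47 kept most of their log2 fold change, at 0.37 and 0.41, but were no longer called (adjusted p = 0.211 and 0.175). Their calls were also lost without library 1 or 2 of WT. Of the 9 sets with 1 library left out, LTI30 was still called in 2 and COR47 in 3. ERD10 was at 0.00 ± 0.16 and ERD14 at -0.30 ± 0.13 (adjusted p = 0.0726), neither called, and ERD14 turned to 0.06 when libraries were scaled by their totals. DESeq2 also called 8 members (45.8% of genes), with ERD14 (adjusted p = 0.0409) in place of RAB18 (0.0984). Leaving out library 1, 2 or 3 of WT left 5 members called, the 4 small COR genes and RD29A. Root and leaf markers moved with this contrast as given above, and their part in these changes was not tested.

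**Figure D4:**
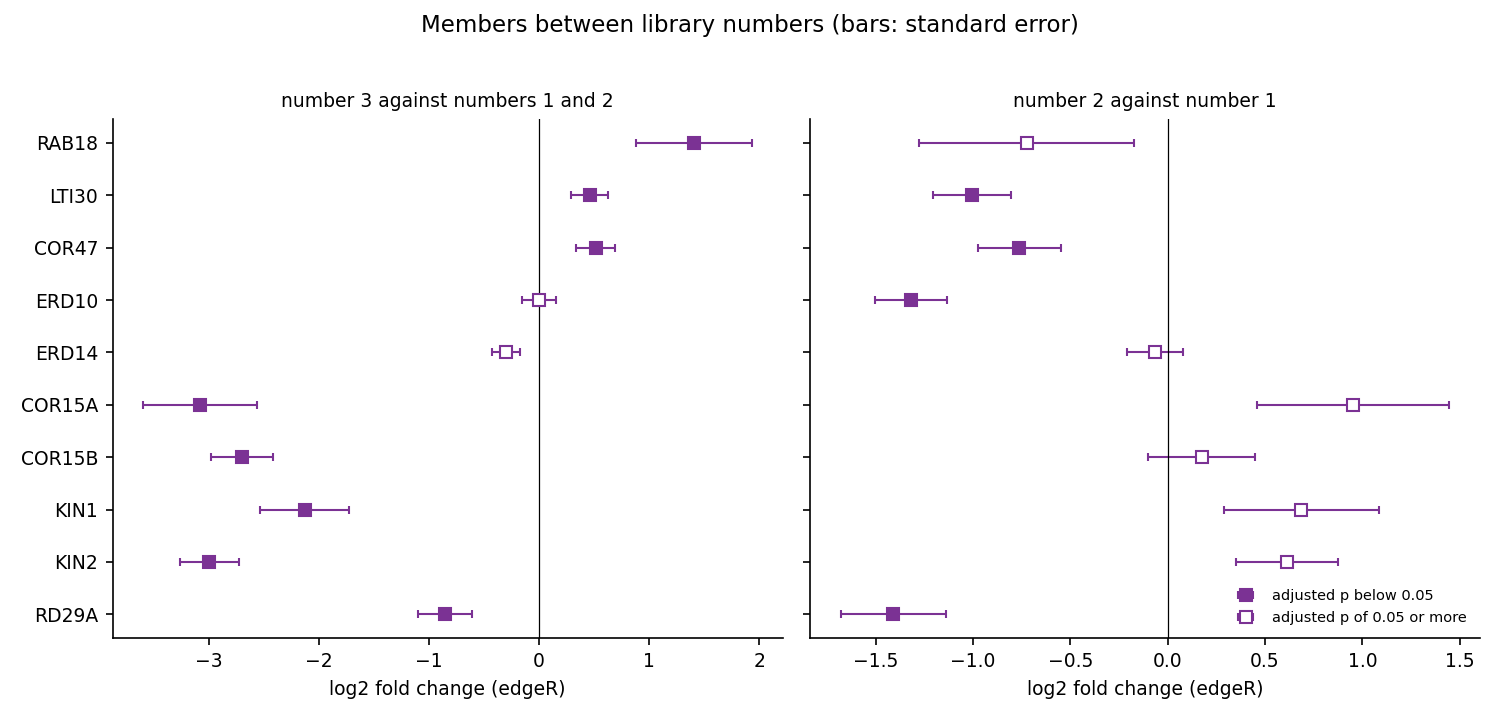
Log2 fold changes of the 10 members between library numbers (edgeR with genotype and number, horizontal axis, scale differing by panel), with bars for 1 standard error. Filled squares passed an adjusted p of 0.05. In number 3 the 4 small COR genes and RD29A are lower and RAB18, LTI30 and COR47 higher, and in number 2 against number 1 the 4 called members are all lower.

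Number 2 against number 1 split the members along another line. The test called 4 of 10 members, all lower, where 21.9% of all genes were called (9.87% higher and 12.1% lower). The log2 fold change was -1.41 ± 0.27 for RD29A (edgeR adjusted p = 0.00448), -1.32 ± 0.18 for ERD10 (adjusted p = 0.000745), -1.0 ± 0.20 for LTI30 (adjusted p = 0.0055) and -0.76 ± 0.21 for COR47 (adjusted p = 0.0244). RAB18, LTI30, COR47 and ERD10 were lower in all 3 libraries numbered 2 than in any other library, as were 12.8% of genes. COR15A and KIN2 were higher there than in any other library, as were 11.8% of genes, though their log2 fold changes against number 1, 0.95 ± 0.49 and 0.61 ± 0.26, were not called (adjusted p = 0.186 and 0.113). DESeq2 called KIN2 higher as well (adjusted p = 0.0303), with 24.9% of genes called. The count was 7 without library 3 of pca31, when COR15A, KIN1 and KIN2 were called higher.

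The members as a whole took 0.213% to 0.472% of all counts of a library. KIN2 alone held 45.0% to 46.6% of the members' counts in the number 1 libraries and 51.7% to 69.1% in number 2. In number 3 it held 17.6% in WT, 15.5% in atrzf1 and 8.66% in pca31, so the makeup of the group changed together with its sum. The summed level of the 10 members was 3955 to 4526 CPM in number 1, 4094 to 5764 CPM in number 2 and 1707 to 3091 CPM in number 3.

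Across the 9 libraries the 4 small COR genes ran together, with Pearson correlations of log2 CPM from 0.891 to 0.964 over their 6 pairs. After the mean of each number was taken out the range was 0.383 to 0.904, and RD29A then correlated with these 4 genes at 0.628 to 0.928, so they no longer stood apart from it. The 5 dehydrins did not form 1 such group, with correlations from -0.5 to 0.845 over 10 pairs. Between small COR genes and dehydrins the 20 pairs ranged from -0.617 to 0.753, and from -0.352 to 0.782 with the number means taken out. These are descriptions over 9 libraries that share numbers and depth, and they carry no test.

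Among 13188 genes with a mean of at least 5 CPM, none of the 3 genes most like any member was itself a member. RAB18 was most like SRF3 (r = 0.93), VTE1 (0.926) and AT1G56420 (0.921). LTI30 was most like CHR17 (0.983), AT2G22795 (0.974) and PKL (0.973), and COR47 was most like AT3G55310 (0.989), AT3G46300 (0.988) and KU70 (0.985). The likeness of RAB18 to its first gene was the weakest of the 10 members. ERD10 was most like AT5G35460 (0.997), SPA1 (0.985) and AT1G78070 (0.984), and ERD14 was most like AT5G55140 (0.974), DIR1 (0.961) and AT5G08270 (0.96). COR15A was most like LP1 (0.978), which encodes a lipid transfer protein, AT4G29030 (0.973) and AGP41 (0.972), and COR15B was most like KCO6 (0.984), AT5G20740 (0.983) and GAPA-2 (0.981), a chloroplast dehydrogenase gene. The 3 genes most like COR15A and the 3 most like COR15B thus did not coincide, while these 2 members correlated with each other at 0.949. KIN1 was most like MSI2 (0.982), AT2G27900 (0.975) and AT3G50550 (0.964), KIN2 was most like AT3G20365 (0.994), SLP2 (0.989) and AT2G21640 (0.988), and RD29A was most like FUM2 (0.965), AT3G57030 (0.961) and AT4G18440 (0.956). With 9 libraries and strong differences between numbers, high values are common.

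The regulators of the pathway were read from lists of related genes. Of 13 CBF/DREB regulators and their upstream factors 12 were tested, of 11 abscisic acid genes 9, of 21 other cold- and dehydration-regulated genes 20 and of 5 other dehydrins 2. The edgeR test called none of those tested in any genotype comparison, with the number as a block or without it. CBF1, CBF2 and CBF3 encode the cold-induced activators of the CRT/DRE. CBF2 was at 17.2, 1.13 and 2.56 CPM in WT, 8.93, 2.45 and 5.76 CPM in atrzf1 and 13.5, 0.405 and 17.2 CPM in pca31. CBF3 was at 19.2, 1.76 and 0.157 CPM in WT, 13.2, 2.54 and 0.692 CPM in atrzf1 and 16.3, 1.65 and 3.56 CPM in pca31. CBF1 ranged from 0 to 5.44 CPM, with its only 0 in WT library 3. In number 3, pca31 held the highest level of each of the 3 CBF genes and the lowest level of COR15A, COR15B, KIN1, KIN2 and RD29A. Each of these levels is 1 library, with CBF3 at only 4 counts in WT, and a link between the CBF genes and these members was not tested.

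In number 3 against numbers 1 and 2, 3 of 12 tested CBF/DREB regulators were called higher and 2 lower, near the 23.6% and 22.1% of all genes (median log2 fold change -0.03, against 0.03 over all genes). CBF3 fell by 2.21 ± 0.59 (edgeR adjusted p = 0.00897), and DREB2A, the drought-induced activator of the same element, rose by 1.51 ± 0.27 (adjusted p = 0.00088). HOS1, a ubiquitin ligase that acts on the CBF activator ICE1, rose by 1.07 ± 0.16 (adjusted p = 0.00024), and CAMTA3, a calmodulin-binding factor, rose by 0.64 ± 0.15 (adjusted p = 0.0046). In number 2 against number 1, 7 of the 12 were lower and 0 higher, where 12.1% and 9.87% of all genes were. Of these 7, the largest log2 changes were -3.36 ± 0.70 for CBF2 (adjusted p = 0.00662), -3.05 ± 0.60 for CBF3 (adjusted p = 0.00516), -1.92 ± 0.42 for the zinc finger gene ZAT10 (adjusted p = 0.00804) and -1.60 ± 0.20 for RAV1 (adjusted p = 0.000395). Low CBF2 and CBF3 in number 2 thus stood beside COR15A and KIN2 at their highest, though neither was called against number 1. They also stood beside RD29A, ERD10, LTI30 and COR47, the 4 members called, all lower. A link between these CBF genes and the members was not tested.

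Of 9 tested abscisic acid genes, 5 were called higher and 1 lower in number 3 (median 0.79), where 23.6% and 22.1% of all genes were. OST1, the guard cell SnRK2 kinase, rose by 1.38 ± 0.23 (edgeR adjusted p = 0.000488), and ABF1, ABF3 and ABF4, factors that bind the ABRE, rose by 1.25 ± 0.14, 0.86 ± 0.16 and 0.79 ± 0.13 (adjusted p from 3.29e-05 to 0.00106). ABF2, the other ABF gene of the list, did not rise, at 20.2 to 21.4 CPM in number 3 and 22.1 to 32.2 CPM elsewhere. In number 2 against number 1, 5 of the 9 were lower (12.1% of all genes), among them NCED3, the rate-limiting enzyme of abscisic acid synthesis, at -1.17 ± 0.37 (adjusted p = 0.0419), ABF1 at -0.89 ± 0.17, ABF3 at -0.85 ± 0.19 and the kinase gene SnRK2.3 at -0.84 ± 0.24. The guard cell markers summed to 977 to 1223 CPM in number 3 and to 2064 to 3769 CPM elsewhere, with 3 of 7 called higher and 1 lower in number 3 (23.6% and 22.1% of all genes). Their sum and most of their calls thus ran in different directions, and the gene called lower was TGG2, an abundant myrosinase, at -2.09 ± 0.24 (adjusted p = 3.29e-05).

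Library 3 of WT, the one high in RAB18, was the highest of the 9 libraries for 3 of 20 other cold- and dehydration-regulated genes, RD29B, LEA7 and AT3G02480, about the share of all genes highest there (14.8%). RD29B, whose promoter is known for its ABREs, was at 0.782, 0.378 and 21.6 CPM in WT, 0.101, 0.526 and 3.24 CPM in atrzf1 and 1.19, 0.433 and 1.20 CPM in pca31. LEA7, a late embryogenesis abundant protein gene, was at 0.853, 2.35 and 85.2 CPM in WT, with a highest value of 23.5 CPM elsewhere, in pca31 library 1. AT3G02480, singled out like LEA7 after its values were seen, was at 19.1 CPM in WT library 3 and at 0.178 to 8.66 CPM in the others. Of the 9 tested abscisic acid synthesis and signalling genes, 4 were highest there (44.4%, against 14.8% of all genes), ABF3, ABF4 and OST1 among them. RD29A, RD26, RD22 and RD20, which also respond to abscisic acid, were not at their highest there. RD29A was at 50.3 CPM against 81.9 CPM in WT library 1, RD26 at 35.9 against 154 CPM, RD22 at 126 against 262 CPM and RD20 at 28.7 against 37.7 CPM. Seed storage and oil body markers summed to 0.328 to 4.31 CPM over all libraries, with 4 to 6 of 8 at 0, and to 0.668 CPM in WT library 3.

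**Figure D5:**
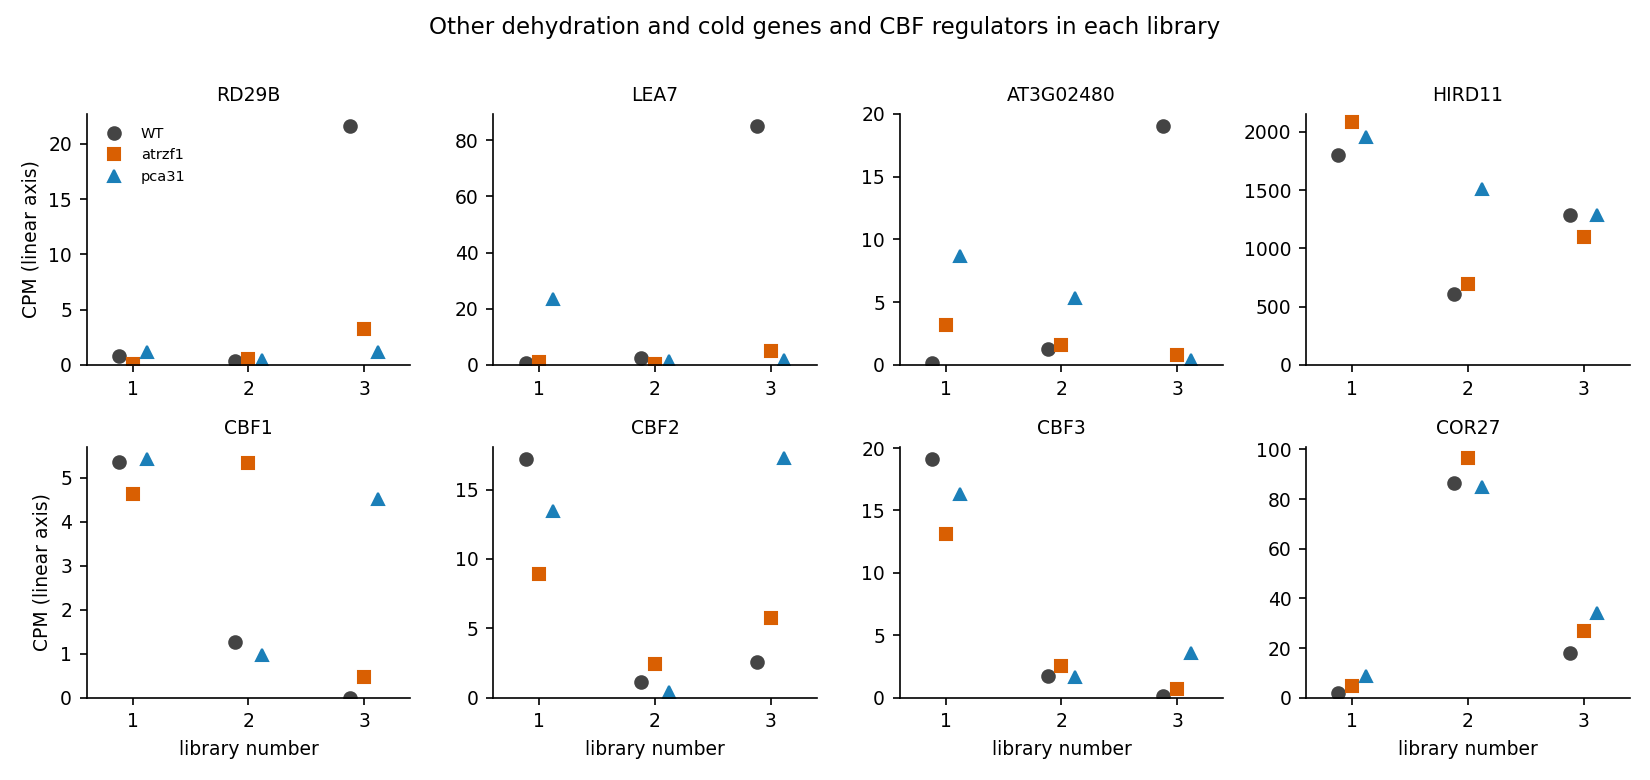
Level of 8 related genes in the 9 libraries, in CPM on linear axes that start at 0 and differ by panel, by library number and genotype (circles WT, squares atrzf1, triangles pca31). RD29B, LEA7 and AT3G02480 are highest in WT library 3, CBF2 and CBF3 are low in the 3 number 2 libraries, and COR27 is highest there.

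Of 20 other cold- and dehydration-regulated genes tested, 2 were called higher and 8 lower in number 3 (median -0.49), where 23.6% and 22.1% of all genes were. In number 2 against number 1, 6 were higher and 6 lower (median -0.33, against -0.05 over all genes), where 9.87% and 12.1% of all genes were. RD29B was higher in number 3 by 3.43 ± 0.72 (edgeR adjusted p = 0.00237). COR413-PM1, a cold-induced membrane protein gene, was at -1.65 ± 0.16 and HVA22D at -1.60 ± 0.18, in the direction of the 4 small COR genes. The galactinol synthase gene GolS3 was at -3.36 ± 0.86. It held 133 to 148 counts in the number 1 libraries and only 0 to 12 in those of numbers 2 and 3 alike. In number 2 against number 1, COR27, a cold gene under clock control, rose by 4.31 ± 0.33 (adjusted p = 1.27e-05), while GolS3, GolS1 and the NAC factor gene RD26 were at -4.38 ± 0.80, -2.37 ± 0.38 and -1.47 ± 0.29.

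Clock genes moved with the numbers too. In number 2 against number 1, 6 of 9 clock genes were called lower and 2 higher, where 12.1% and 9.87% of all genes were. Among the 6 were PRR9, CCA1, PRR7 and LHY, which peak in the morning and by day. Their log2 fold changes were -8.07 ± 0.73, -5.58 ± 0.87, -4.89 ± 0.27 and -3.11 ± 0.58 (edgeR adjusted p from 1.14e-06 to 0.00355). In number 3, 4 of 9 clock genes were higher and 1 lower (23.6% and 22.1% of all genes), with PRR7 higher by 2.72 ± 0.19. The labels give no sampling time, and its part in the differences of the members between numbers was not tested.

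Among the dehydrins outside the 10, HIRD11 was the abundant one, at 607 to 1800 CPM in WT, 697 to 2080 CPM in atrzf1 and 1285 to 1957 CPM in pca31. It fell by 1.15 ± 0.24 in number 2 against number 1 (edgeR adjusted p = 0.00689), as 3 of the 5 member dehydrins did. XERO1, a dehydrin gene, was barely detected, at 0 to 0.472 CPM. AT2G21490 was at 0 in all 3 WT libraries, at 0.11 to 2.23 CPM in atrzf1 and at 0 to 2.40 CPM in pca31, and the genotype comparisons did not call it. The 7 floral organ markers moved with it, at a summed 7.30 to 12.8 CPM in WT, 19.0 to 64.5 CPM in atrzf1 and 17.0 to 52.2 CPM in pca31, with none called between genotypes by edgeR. AG, the carpel and stamen identity gene among them, ranged from 0.157 to 0.213 CPM in the WT libraries, measured 2.27, 0.657 and 0 CPM in those of atrzf1 and 1.67, 1.88 and 0 CPM in those of pca31, and its part in the level of AT2G21490 was not tested.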

How the data were processed

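Transcripts of 9 seedling libraries were counted by QuantSeq 3' end sequencing from 500 ng of total RNA, per the labels' protocols. What was deposited are whole-number counts for each gene, not normalized by the authors. Bowtie2, bedtools and TAIR10 are named in the submitters' processing notes, with no versions, strand setting, annotation or read filter among the sources used. Of 33323 identifiers, 32835 matched a locus tag of RefSeq TAIR10.1, the source of symbols, positions and promoter windows.

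Tests used edgeR 4.0.16 in R 4.3.3. After filterByExpr (minimum count 10, minimum total 15) and TMM scaling, glmQLFTest was run over all 9 libraries with genotype as the term, Benjamini-Hochberg adjustment over 20672 genes and a threshold of 0.05. Comparisons of library numbers used genotype and number as terms. DESeq2 1.42.0, library totals, other filters, left-out libraries and the number as a block were alternatives. The numbers paired the libraries, since same-number deviations from the group means correlated at 0.585 to 0.849 in all 9 pairs of libraries. CPM uses the TMM-scaled library size, each error beside a log2 fold change is the fit's standard error, and a count of 0 allows up to 3 counts, counting error only, since PCR copies are not independent molecules. The scripts were tested on simulated data. Genes outside the members are named if called in a comparison (up to 4 per list, largest change first), with CBF1, CBF2, CBF3, RD29B and XERO1 always named and the 3 genes most like each member. The members and lists were chosen with earlier results of these data known, and the interaction test was added after the values were seen.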

Additional observations from a re-analysis of the deposited data

Results flagged for a closer look

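An interaction added after the values of these members were seen set the difference between pca31 and WT in number 3 against that in numbers 1 and 2, and it passed the threshold for 2 members (edgeR, Benjamini-Hochberg adjusted). RAB18, the dehydrin gene of the abscisic acid response, differed by -3.57 on the log2 scale (adjusted p = 0.0397), with WT library 3 the high one. COR15A, the chloroplast protein gene, differed by -3.58 (adjusted p = 0.0496), with pca31 library 3 the low one. The contrast was picked for these values and each number 3 value is 1 library, so the p-values are descriptions of these libraries. The alternatives leave out libraries of numbers 1 and 2 only and so cannot remove the library behind either difference. Under them the log2 difference lay between -3.83 and -3.33 for RAB18 and between -3.88 and -3.22 for COR15A, which says nothing of how stable it is.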

How the results depend on the processing

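Values here are log2 fold changes unless they are counts of called members. The genotype comparisons called 0 of 10 members under each alternative except 1: DESeq2 with the replicate block called 1 in pca31 against WT. Signs of these uncalled differences turned under the settings below, and the cause was not tested. With the replicate block, signs turned for COR47 (0.052) and COR15B (-0.12) in pca31 against atrzf1 and for COR15A (-0.55) in pca31 against WT. DESeq2 with the replicate block turned COR15A (-0.021) in atrzf1 against WT, COR47 (0.025), COR15B (-0.15) and KIN1 (-0.043) in pca31 against atrzf1, and COR15A (-0.64) in pca31 against WT. The block changed no other call.

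Scaling by library totals moved the median of all genes by 0.36 in number 3 against numbers 1 and 2, by 0.15 in pca31 against atrzf1 and, for pca31 against WT, by 0.19. It turned ERD14 (0.029) and RD29A (0.013) in atrzf1 against WT, COR47 (0.057) and ERD14 (0.072) in pca31 against atrzf1, ERD14 (0.10) in pca31 against WT, ERD10 (0.36) and ERD14 (0.059) in number 3, and LTI30 (-0.091) in the interaction of pca31 against WT. Without a filter ERD10 was at 0.011 in number 3. LTI30 was at -0.042 in number 3 against number 1 alone, and ERD10 was at 0.66 in number 3 against number 2 alone.

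Leaving out 1 library at a time, with and without the block, gave these ranges where a sign turned. In atrzf1 against WT they were -2.06 to 0.44 for RAB18, -0.43 to 0.22 for LTI30, -0.42 to 0.22 for COR47, -0.56 to 0.28 for ERD10, -0.17 to 0.070 for ERD14, -0.65 to 1.16 for COR15A, -0.087 to 0.89 for COR15B, -0.80 to 0.68 for KIN2 and -0.76 to 0.33 for RD29A. In pca31 against WT they were -2.23 to 0.24 for RAB18, -0.12 to 0.40 for LTI30, -0.39 to 0.10 for COR47, -0.28 to 0.37 for ERD10, -1.26 to 0.84 for COR15A, -0.14 to 1.04 for COR15B, -1.29 to 0.20 for KIN2 and -1.19 to 0.13 for RD29A. In pca31 against atrzf1 they were -0.48 to 0.39 for RAB18, -0.090 to 0.56 for LTI30, -0.39 to 0.32 for COR47, -0.24 to 0.61 for ERD10, -0.18 to 0.022 for ERD14, -1.25 to 0.84 for COR15A, -0.38 to 0.63 for COR15B, -0.42 to 0.88 for KIN1, -1.01 to 0.16 for KIN2 and -1.18 to 0.51 for RD29A. ERD10 ranged from -0.17 to 0.13 in number 3, and in number 2 against number 1 ERD14 ranged from -0.15 to 0.025 and COR15B from -0.005 to 0.44. In the interaction of pca31 against WT, LTI30 ranged from -0.26 to 0.25 and ERD14 from -0.003 to 0.33.

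In number 3 the count of 8 called members became 5 to 7 when a library was left out, 7 with library totals and 6 against number 1 alone. In number 2 against number 1 the count of 4 became 3 to 7, and 5 with DESeq2. The interaction counts of 2 in pca31 against WT became 2 to 6 when a library was left out and 3 with DESeq2. The 0 in atrzf1 against WT became 1 without a filter, 1 with DESeq2 and 0 to 1 when a library was left out. The 0 in pca31 against atrzf1 became 1 with DESeq2 and 0 to 1 when a library was left out. RAB18 in atrzf1 against WT and COR15A in pca31 against atrzf1 were the genes gained, each without library 1 or 2 of WT or of pca31. COR15B, KIN1 and RD29A were gained in pca31 against WT without library 1 or 2 of pca31, and KIN2 without library 2.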
